A study of Homo sapiens with 192 samples.

Results

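The 10 AP-1 transcription factor genes JUN, JUNB, JUND, FOS, FOSB, FOSL1, FOSL2, ATF3, BATF and BATF3 were described in single-nucleus ATAC-seq data of HAP1, a near-haploid human cell line derived from a leukemia. A feature is a stretch of open chromatin of about 1 kb called on all nuclei together. Those within 1000 bp of a GENCODE transcription start of a gene were taken as its promoter features, and those within 50 kb of its body as its window (hg38). This rule took 34 of the 80971 features. Of these, 8 lay at a start of an AP-1 gene, 5 at starts of other protein-coding genes, 5 inside protein-coding genes and 16 outside them. In the experiment, HAP1 cells labeled with CASB, a sample barcode attached through concanavalin A, were pooled with unlabeled HAP1 cells. Nuclei were tagged by Tn5 transposase in bulk and sorted, 1 per well, into 2 plates of 96. No drug or cytokine is named for these plates, both hold the same pool, and the CASB label of a nucleus is not used here. Each plate is therefore 1 mixed sample, a difference between plates has no replicate check, and no test was made.

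AP-1 is a dimer of basic leucine zipper proteins. JUN proteins pair with each other or with FOS proteins and bind the AP-1 element TGACTCA, while dimers with ATF partners prefer the cAMP response element (CRE) TGACGTCA. Many of the genes are immediate early genes, which growth factors, stress and signaling through MAP kinases switch on within minutes, in part through their own elements or through a CArG box bound by the serum response factor. BATF and BATF3 lack a transactivation domain and are best known from lymphocytes and dendritic cells.

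The promoters that carried the most signal, or a known element, are shown first, to place the elements beside the counts that follow. Each runs 5′ to 3′ on the strand of its gene, read from hg38, with exact matches to the searched elements in capitals and the position counted from -1 at the base before the canonical start. The elements searched on both strands were the AP-1 element, the CRE, TGACATCA (an element known from the JUN promoter) and the CArG box. The stretches of JUN (chr1:58784049-58784297, minus strand), FOS (chr14:75278488-75278787, plus strand), JUND (chr19:18281623-18281872, minus strand) and ATF3 (chr1:212608511-212608669, plus strand) avoid annotated exons of protein-coding genes. FOSL2 (chr2:28392854-28392876, plus strand) is shown only around its element, which lies just past the start.
JUN: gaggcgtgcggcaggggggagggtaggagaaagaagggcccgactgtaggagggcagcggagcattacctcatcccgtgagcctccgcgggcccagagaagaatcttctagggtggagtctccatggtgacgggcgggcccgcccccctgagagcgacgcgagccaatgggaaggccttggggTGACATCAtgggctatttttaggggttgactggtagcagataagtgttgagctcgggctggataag
FOS: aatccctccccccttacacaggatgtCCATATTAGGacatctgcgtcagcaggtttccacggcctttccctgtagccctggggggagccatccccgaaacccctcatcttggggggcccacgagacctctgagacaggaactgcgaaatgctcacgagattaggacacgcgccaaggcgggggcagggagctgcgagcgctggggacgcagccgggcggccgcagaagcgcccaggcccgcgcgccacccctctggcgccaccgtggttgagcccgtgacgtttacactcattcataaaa
JUND: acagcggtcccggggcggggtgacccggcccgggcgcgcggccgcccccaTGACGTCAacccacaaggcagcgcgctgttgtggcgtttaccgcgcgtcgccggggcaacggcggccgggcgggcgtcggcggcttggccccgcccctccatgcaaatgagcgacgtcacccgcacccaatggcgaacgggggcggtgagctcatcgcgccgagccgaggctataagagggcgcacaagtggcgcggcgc
ATF3: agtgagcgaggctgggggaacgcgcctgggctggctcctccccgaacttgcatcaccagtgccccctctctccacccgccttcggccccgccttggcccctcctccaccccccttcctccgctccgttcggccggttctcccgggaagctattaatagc
FOSL2: cattgtagTGACTCAtctcgggc

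TGACATCA of JUN lay at -67 to -60, the CArG box of FOS at -314 to -305 and the CRE of JUND at -200 to -193. None of the 4 elements was found in the stretch of ATF3, which ends at -92. The promoter feature that spans its canonical start held none either. Across 22199 RefSeq promoters of protein-coding genes (300 bases each, 250 of them before the start), TGACATCA was held by 2.13%, the CRE by 2.26%, the AP-1 element by 4.01% and the CArG box by 1.25%. The CArG box of FOS lies outside that window, so the last share is no background for it. RefSeq promoters were matched for 8 of the 10 genes, with 2 for ATF3, and their letters for JUN and JUND are those printed. These matches are descriptions of sequence only.

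Of the 96 nuclei of each plate, 83 on plate 1 and 79 on plate 2 passed the filter of more than 300 features, with 345 to 15351 read pairs in features. Their median was 2029 read pairs on plate 1 and 2162 on plate 2. The nuclei are shallow, so a promoter that was not seen in a nucleus may still have been open in it. Cells 37 to 48, 73 to 84 and 85 to 96 of each plate were linked, in that cells in the same place of these 3 runs shared many features. Of the 25114 features seen in exactly 2 of all cells, 71% joined such linked wells, which make up 0.393% of the pairs of wells. The 71 passing linked cells also had more read pairs (median 2502) than the 91 others (median 1636). The linked cells held 266042 of the 483167 read pairs of all passing cells, which is the background for counts in linked wells below. Results that rest on the linked cells are given with and without them. As a check of the cell line, 7 of 8 mesenchymal and adherent genes had a promoter feature, with shares from 3.09% of the cells (COL1A1) to 16% (VIM) and none for ACTA2. Among 10 hematopoietic genes 2 had one, KIT (9.88%) and RUNX1 (7.41%), and none was called for PTPRC, SPI1, GATA1 or CD34. Over all protein-coding genes 56.1% had one.

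At the promoters, JUN was seen in the most cells and ATF3 came next. A promoter feature was called for 6 of the 10 genes, JUN, ATF3, BATF3, JUND, FOS and FOSL2, and none for JUNB, FOSB, FOSL1 and BATF. Among 20033 protein-coding genes, 11233 (56.1%) had a promoter feature. JUN and ATF3 were the 2 of 10 genes seen in at least 10% of the passing cells, where 12% of all protein-coding genes were. With genes without a promoter feature entered at 0, the median share over the 10 genes was 4.94%, beside 1.85% over all protein-coding genes. Among genes with a promoter feature the medians lay closer, 6.48% for the 6 AP-1 genes and 5.56% for all.

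**Figure D1:**
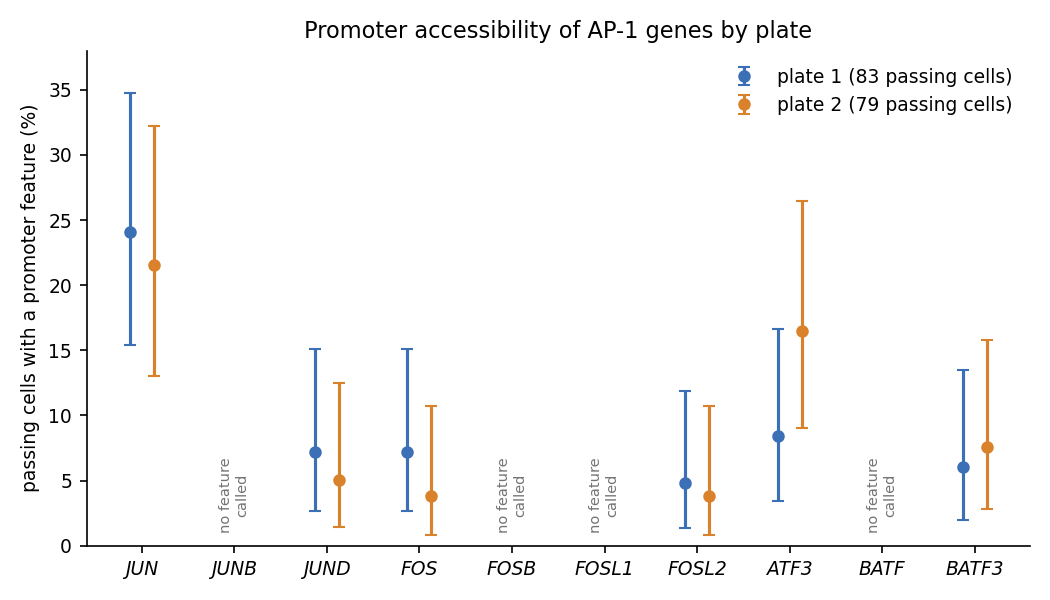
Percentage of passing cells with at least 1 read pair in a promoter feature (y axis) for each AP-1 gene (x axis), in plate 1 (blue, 83 cells) and plate 2 (orange, 79 cells), with exact 95% binomial intervals as bars. JUN was at 24.1% and 21.5%, and the intervals of the plates overlapped for all 6 genes with a promoter feature.

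JUN encodes the founding subunit of AP-1, which can bind DNA as a homodimer. Its promoter feature (chr1:58783729-58784729), centered at -0.182 kb, was seen in 20 of 83 cells of plate 1 (24.1%, interval 15.4 to 34.7%) and in 17 of 79 cells of plate 2 (21.5%, interval 13.1 to 32.2%). The plates differed by less than these exact 95% (Clopper-Pearson) intervals, which reflect only the counting of cells. All intervals here take each cell as independent, which linked cells may not be, so those that include linked cells may be too narrow. Over both plates this gave 37 cells (22.8%, interval 16.6 to 30.1%). A share this high was rare, since 99.1% of protein-coding genes, and 98.3% of those with a promoter feature, had a lower one. The feature held 54 read pairs, and 12 cells had at least 2, up to 5 in 1 cell. Without the linked wells JUN was seen in 24 of 91 cells (26.4%), and within them in 13 of 71 (18.3%). The signal at JUN was thus present without the linked wells. Starts of the noncoding genes LINC01135 and ENSG00000290013 lie within 1000 bp of the same feature, and their signal cannot be told apart from that of JUN.

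JUND, the JUN family member known for steady expression in unstimulated cells, was seen in 6 cells of plate 1 (7.23%, interval 2.70 to 15.1%) and in 4 of plate 2 (5.06%, interval 1.40 to 12.5%). Together these were 10 cells (6.17%, interval 3.00 to 11.1%), each with a single read pair. This value rested largely on the linked wells, which held 8 of the 10 cells (11.3% of 71, interval 4.99 to 21%), against 2 of the 91 others (2.20%, interval 0.267 to 7.71%). Of the 10 cells, 4 shared the feature with a linked well, beside 20.0% of all pairs of a protein-coding gene and a cell with its promoter. The part of the linked wells and of their depth in this difference was not tested. JUNB, an immediate early member that can restrain JUN, had no feature called within 1000 bp of its start.

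FOS, the classic immediate early gene, which needs a JUN partner to bind DNA, was seen in 6 cells of plate 1 (7.23%) and 3 of plate 2 (3.80%). Over both plates it was seen in 9 cells (5.56%, interval 2.57 to 10.3%), with 11 read pairs. FOSL2, which encodes FRA2, was seen in 4 cells of plate 1 (4.82%) and 3 of plate 2 (3.80%), in all 7 (4.32%, interval 1.75 to 8.70%). Both genes had nearly the same share without the linked wells, 5.49% for FOS and 4.40% for FOSL2. No promoter feature was called for FOSB or for FOSL1, which encodes FRA1.

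ATF3, a stress-induced gene whose product acts as a homodimer or with JUN proteins, had 2 overlapping promoter features (overlap of 259 bp), in which a read pair could be counted in each. Either was seen in 7 cells of plate 1 (8.43%, interval 3.46 to 16.6%) and in 13 of plate 2 (16.5%, interval 9.06 to 26.5%). The intervals overlapped. Over both plates this was 20 cells (12.3%, interval 7.71 to 18.4%). Without the linked wells it was 9 of 91 (9.89%, interval 4.62 to 17.9%), which is below the 10% mark. Both features lie at the canonical GENCODE start inside the longer gene body. No feature was called within 1000 bp of the starts RefSeq lists for ATF3, chr1:212565407 and chr1:212615018.

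BATF3, known for its role in dendritic cells, had 2 features near its start and none that contained it. They were seen in 6 and 5 cells, in all in 11 (6.79%, interval 3.44 to 11.8%), with 5 cells on plate 1 and 6 on plate 2. The linked wells held 8 of these cells, and the others 3 of 91 (3.30%, interval 0.685 to 9.33%). Of the 11 cells, 4 shared the promoter with a linked well. The same held for 8 of the 37 JUN cells, 2 of the 9 FOS cells and 0 of the 7 FOSL2 cells. BATF, known from T cells, had no promoter feature. In the order JUN, ATF3, BATF3, JUND, FOS and FOSL2, the interval of JUN overlapped that of ATF3 and lay above those of the other genes. The intervals of ATF3, BATF3, JUND, FOS and FOSL2 overlapped each other. Shares of genes with 2 features rest on more sequence than shares of genes with 1.

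**Figure D2:**
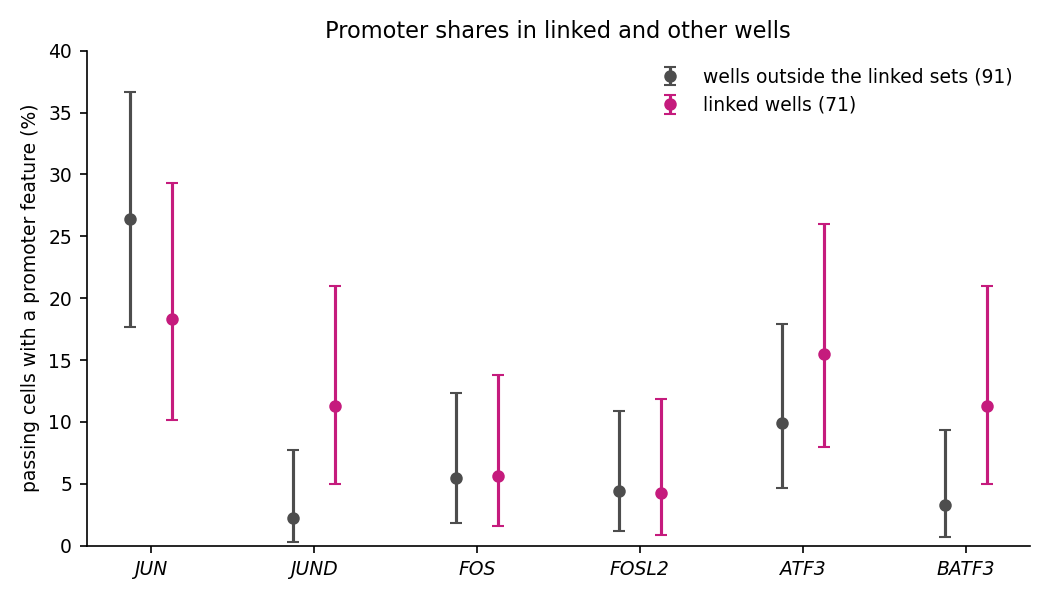
Percentage of passing cells with a promoter feature (y axis) for the 6 AP-1 genes that had one (x axis), in the 91 cells outside the linked wells (gray) and the 71 cells within them (pink), with exact 95% binomial intervals. JUND (2.20% and 11.3%) and BATF3 (3.30% and 11.3%) lay higher in the linked wells, JUN (26.4% and 18.3%) lay lower, and all intervals overlapped. They take each cell as independent, which linked cells may not be, so those of the linked wells may be too narrow.

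**Figure D3:**
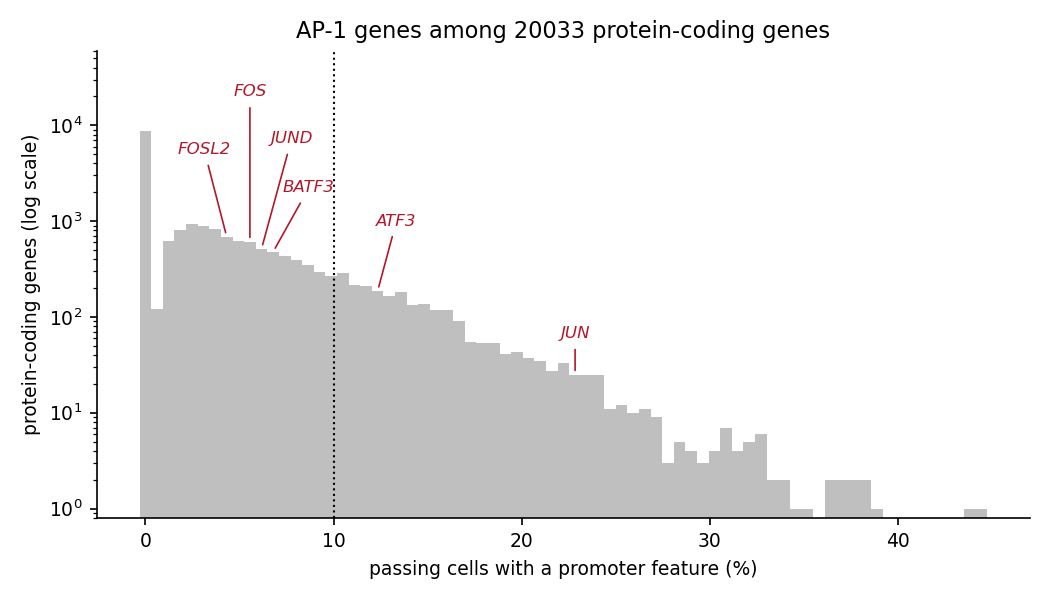
Number of protein-coding genes (y axis, log scale) by the percentage of the passing cells with a promoter feature (x axis), with genes without a feature at 0 and a dotted line at 10%. JUN at 22.8% lies in the thin right tail, ATF3 at 12.3% lies just past the line, and the other 4 labeled genes lie between 4.32% and 6.79%.

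Away from the promoters, the window of ATF3 was the richest and that of FOSL2 the poorest. ATF3 had 9 features in its window (5.79 per 100 kb), JUN had 5, and FOSL2 had only its promoter feature (0.801 per 100 kb). FOS, FOSL1 and BATF3 had 4 each, and JUNB, JUND, FOSB and BATF 2 each. The median over the members was 3 features (2.75 per 100 kb), beside 4 (2.84 per 100 kb) over all protein-coding genes. Of all 34 features, those at starts included, 8 were seen in at least 10 passing cells (23.5%, beside 11.4% of all features), 21 in 3 to 9 cells and 5 in at most 2. The 8 include the promoter features of JUN, JUND and ATF3. Over all features, 4500 of 16007 at protein-coding starts and 4763 of 64964 away from them were seen in at least 10. Features at starts weigh more among the 34 than among all, so 23.5% and 11.4% are not like for like.

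Upstream of JUN lay a pair of features at -31.2 kb (chr1:58814752-58815752) and -32.3 kb (chr1:58815817-58816817), 64 bp apart, outside protein-coding genes. Both are centered inside the noncoding gene LINC01135, and a start of LINC01135 lies within 1000 bp of the one at -31.2 kb. Distances are from the center of a feature to the canonical start, negative upstream. The first was seen in 8 cells of plate 1 and 5 of plate 2, and the second in 9 and 5. They were thus seen in 13 and 14 cells, more cells than 96.3% and 97% of the features away from protein-coding starts. Both were seen in 4 cells. The part of depth in this and the following overlaps was not tested. The feature at -31.2 kb shared 7 cells with the JUN promoter, and that at -32.3 kb shared 5. Without the linked wells each was seen in 8 cells. A further feature in the exon of JUN at 1.65 kb was seen in 7 cells, 3 on plate 1 and 4 on plate 2.

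Near ATF3, the feature at 24.6 kb (chr1:212632908-212633908), past the 3′ end of the gene, was seen about as often as the promoter. It appeared in 6 cells of plate 1 and 11 of plate 2, in all 17, and in 10 without the linked wells. Its GC content was 45.1%, against 65.5% in the main promoter feature of ATF3. Both it and that promoter feature were seen in 4 cells, and the part of depth in this overlap was not tested. The feature at chr1:212665041-212666041, near the noncoding gene LINC02773, lies in the windows of both ATF3 and BATF3, 56.8 kb from the start of ATF3 and 34.3 kb from that of BATF3. It was seen in 10 cells, 5 on each plate, and in 5 without the linked wells. A feature at -62.6 kb was seen in 4 cells, all on plate 2 and all in linked wells.

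Downstream of FOS, a feature at 15.4 kb (chr14:75293736-75294736), near a start of LINC01220, was seen in 10 cells, 5 on each plate, and so about as often as the FOS promoter. No cell had both, and with so few cells this does not show separate use. Of the 10 cells, 8 were in linked wells. At -19.9 kb a FOS feature was seen in 4 cells, all on plate 2, and in 2 without the linked wells. JUNB had a feature at 5.14 kb inside HOOK2, seen in 4 cells of plate 2 and in 0 of plate 1, and in 1 cell without the linked wells, and JUND had one at -10.8 kb in 3 cells. FOSB had one at 17.4 kb in an exon of RTN2, seen in 5 cells, all of them in linked wells. BATF had one at -42.3 kb in 4 cells of plate 2 (3 without the linked wells), and BATF3 one at 28 kb in 3 cells. Other features were seen on plate 1 only, among them that of JUNB at 10.4 kb, at starts of PRDX2 and THSD8, in 3 cells. The share of all features seen on 1 plate only was not computed, so these small counts, here and near ATF3, do not show a difference between plates. FOSL1 had no named feature, and its window held 3 features at the starts of its neighbors CFL1, MUS81, C11orf68 and DRAP1, seen in 8, 3 and 3 cells. Its 4th was seen in 1 cell, with 5 read pairs.

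**Figure D4:**
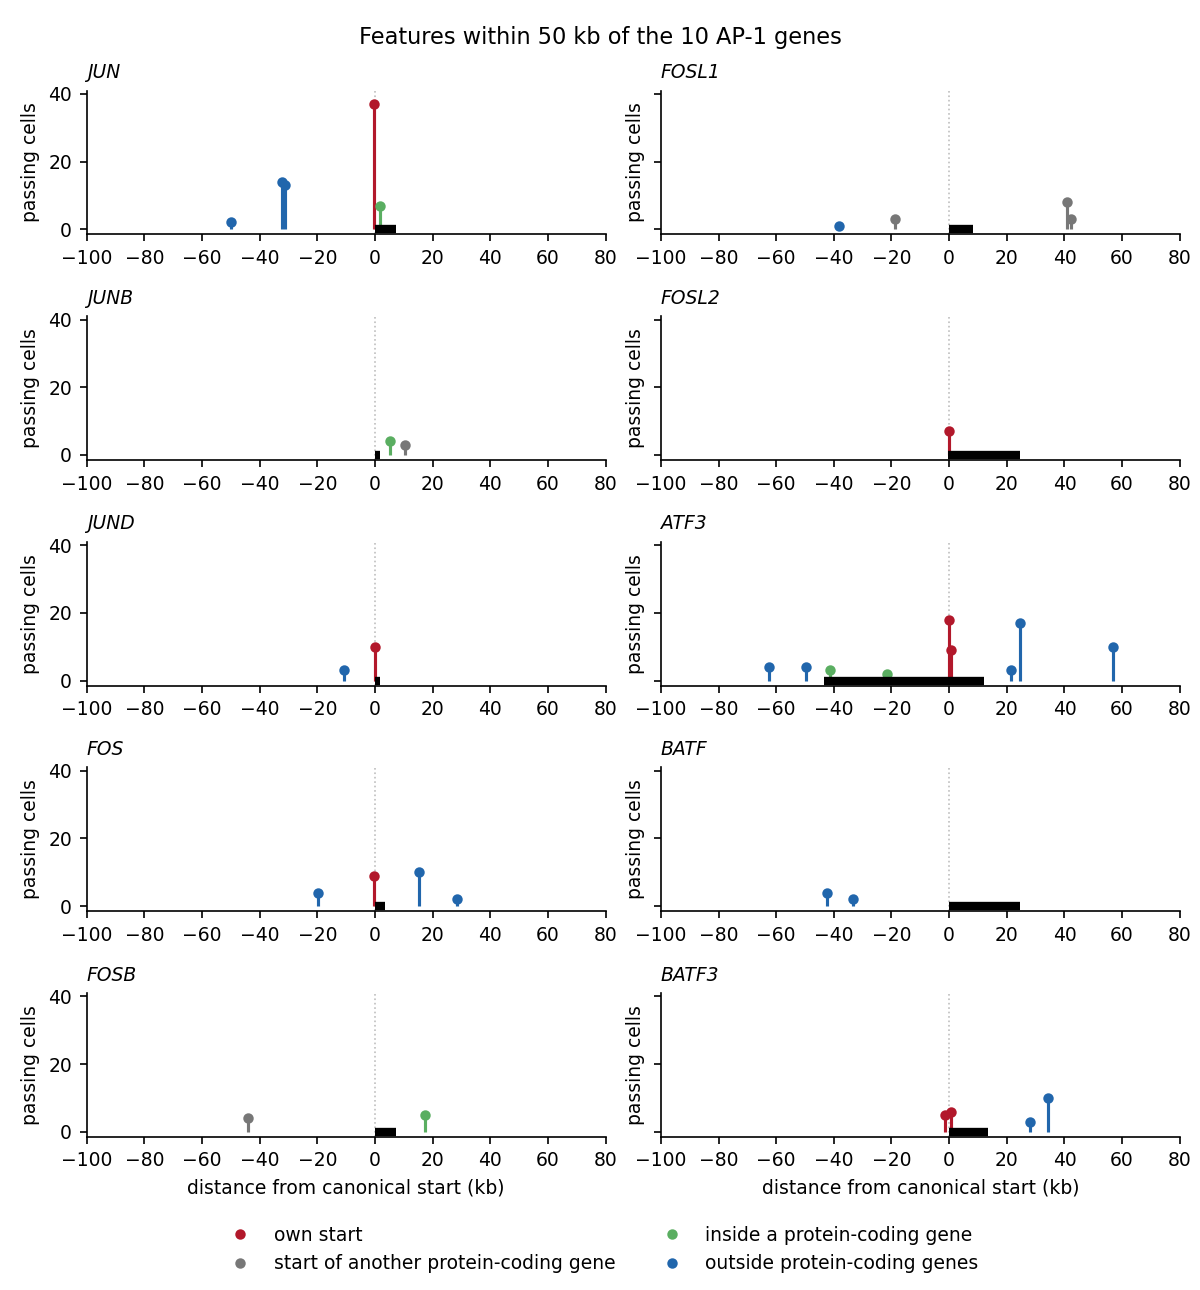
Passing cells (y axis) with each of the features within 50 kb of the body of each AP-1 gene, by distance of the feature center from the canonical start in kb (x axis, negative upstream), colored by class, with the gene body as a black bar. The JUN promoter at 37 cells is the highest point, and ATF3 has points of 18 and 17 cells at its start and at 24.6 kb.

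Between the plates, 8 of the features near AP-1 genes were seen in at least 10 passing cells and could be compared. Of these 1 differed at least 2-fold in the share of cells, where 22.4% of the 9263 such features did. It was the main ATF3 promoter feature, seen in 6 cells of plate 1 and 12 of plate 2, a ratio of 2.10. The ATF3 feature at 24.6 kb had a ratio of 1.93. For JUN the ratio was 0.893 at the promoter, 0.657 at -31.2 kb and 0.584 at -32.3 kb, and for JUND it was 0.70. The FOS feature at 15.4 kb and the one shared by ATF3 and BATF3 had a ratio of 1.05. At 1 sample per plate, these are ratios of counts of cells, and for the ATF3 promoter the plate intervals overlapped.

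AP-1 elements stood close to the center of 4 distal features, all in the ATF3 and BATF3 region. The stretches printed here hold the matches nearest to a feature's center and are shown because they place the element where the open chromatin was called. They were chosen for their match, and the ATF3 features at -49.8 kb and -41.5 kb, each seen in few cells, were named for it after their values were known. Letters are from the plus strand of hg38, with the elements in capitals: ATF3 at -62.6 kb (chr1:212546077-212546177), at -49.8 kb (chr1:212558980-212559080) and at -41.5 kb in an intron of its longer transcripts (chr1:212567204-212567304), BATF3 at 28 kb (chr1:212671788-212671848), and FOS at 15.4 kb (chr14:75294285-75294345), the last with a CArG box.
ATF3 distal A: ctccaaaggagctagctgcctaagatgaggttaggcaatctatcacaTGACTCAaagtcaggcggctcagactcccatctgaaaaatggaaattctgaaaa
ATF3 distal B: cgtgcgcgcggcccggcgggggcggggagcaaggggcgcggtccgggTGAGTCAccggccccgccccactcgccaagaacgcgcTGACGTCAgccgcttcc
ATF3 distal C: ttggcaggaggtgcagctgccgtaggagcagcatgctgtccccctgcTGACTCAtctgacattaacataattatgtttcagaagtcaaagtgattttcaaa
BATF3 distal: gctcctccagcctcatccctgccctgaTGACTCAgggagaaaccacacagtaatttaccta
FOS distal: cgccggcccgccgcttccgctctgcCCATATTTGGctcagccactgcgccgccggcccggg

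An AP-1 element was found in 8 of the 34 features. At the AP-1 gene starts 1 of 8 features held it, that of FOSL2, where 10.0% of all features at protein-coding starts did. Of the 21 features away from any protein-coding start, 6 held it (28.6%, beside 16.8% of all such features), and 4 had it within 100 bp of the center (19%, beside 4.35%). These 4 are the ATF3 features at -62.6, -49.8 and -41.5 kb and the BATF3 feature at 28 kb, seen in 4, 4, 3 and 3 cells. The feature at -49.8 kb also held a CRE, which 0.423% of the features away from protein-coding starts and 0.915% of all features did. It lies within 1000 bp of starts of ENSG00000260805 and ENSG00000288007, and that at -62.6 kb of a start of LINC01740, none of them protein-coding. The distal features seen in most cells, at -31.2 and -32.3 kb of JUN and at 24.6 kb of ATF3, held none of the 4 elements. CArG boxes were found in 3 of the 34 features, beside 5.82% of all features. They were the FOS promoter feature, the FOS feature at 15.4 kb and the feature 40.7 kb from the start of FOSL1, at the starts of its neighbors. With so few features, each share moves by several percentage points with 1 feature more or less.

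The promoter features were rich in G and C, and genes without a feature included both high and low GC content. The 8 features at AP-1 starts had a median GC content of 65.8%, beside 59% in all features at protein-coding starts, and JUND had the highest at 77.5%. In the RefSeq promoters, which do not depend on a called feature, JUNB had 71% GC and FOSB 64% with no feature, while JUN had 62%. BATF, also without a feature, had 46%. The 2 RefSeq promoters of ATF3, at starts without a feature, had 48% and 46.3%, and none was matched for FOSL1 or BATF3. The median of all RefSeq promoters was 62.3%.

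In single nuclei, most showed at most 1 of the promoters. Of the passing cells, 92 showed none, 51 showed 1, 14 showed 2 and 5 showed 3. At least 1 was seen in 70 cells (43.2%, interval 35.5 to 51.2%), with 39.8% on plate 1 and 46.8% on plate 2. The number of promoters seen went with depth. Cells with 0, 1, 2 and 3 promoters had medians of 1437, 2759, 6590 and 8512 read pairs. With every cell thinned to 600 read pairs, 15.8% of the cells left showed at least 1 and none showed more than 1.

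By depth, JUN was seen in 4 of the 54 shallowest cells, in 12 of the middle 54 and in 21 of the deepest 54 (38.9%). ATF3 was seen in 1, 4 and 15 of these cells, and JUND in 1, 0 and 9. FOS was spread more evenly, with 2, 3 and 4 cells. After thinning, JUN was seen in 7.53% of cells (interval 3.82 to 13.1%), and FOS and ATF3 in 2.05% each. JUN and ATF3 were seen together in 8 cells, 40.0% of the ATF3 cells and 21.6% of the JUN cells. JUN appeared with FOS in 4 cells and with JUND in 4. FOS shared 3 cells with FOSL2 and 0 with ATF3. Depth is shared by all genes of a cell and its part in these overlaps was not tested.

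**Figure D5:**
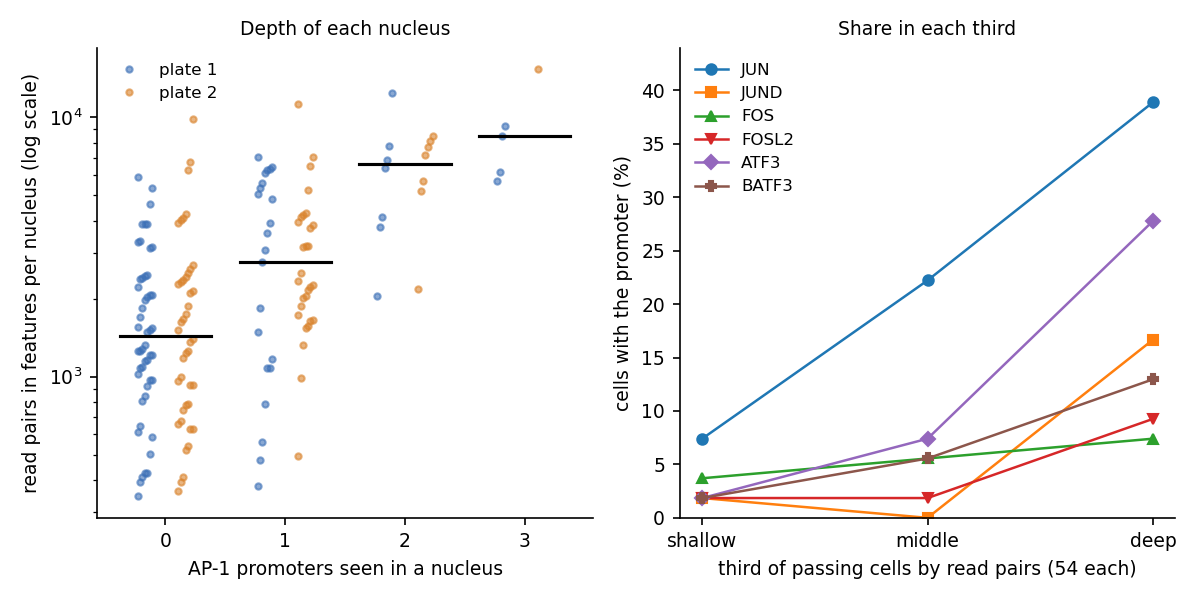
Left, read pairs in features per nucleus (y axis, log scale) by the number of AP-1 promoters seen in it (x axis), with each passing cell as a point colored by plate and medians as bars, which climb from 1437 to 8512. Right, percentage of cells with each promoter (y axis) in the 54 shallowest, middle and deepest cells (x axis), where JUN reaches 38.9% and FOS stays lowest in the deepest cells at 7.41%.

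Elsewhere in the pathway, the mark of 10% of the cells, which 12% of all protein-coding genes passed, was passed by some genes of 3 lists and by 0 of the 10 AP-1 target genes, a count near that background. Of 16 other immediate early genes, 5 were seen in at least 10% of the cells, led by EGR2 and KLF6 (17.9% each) and EGR1 (14.8%), zinc finger factors. IER3, KLF2 and ZFP36 had no promoter feature. Of 13 kinases and regulators of JUN and FOS, 4 passed that mark, with MAPK10, a JUN N-terminal kinase, at 19.1%, ELK1, a cofactor of the serum response factor, at 16.7% and CREB1 at 12.3%. The share of MAPK10 rests on 5 promoter features and those of EGR2 and KLF6 on 4 each, while ELK1 and JUN had 1. No feature was called for MAP2K7 or MAPK3.

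Of 15 other leucine zipper partners, 1 passed the mark, BACH2 at 11.7%, while DDIT3, NFE2L2 and NFIL3 stood at 9.88% each and BATF2 and MAFK had no feature. Of the 10 AP-1 target genes, 4 had a promoter feature (40%, beside 56.1% of all protein-coding genes), among them PLAUR (4.94%), TIMP1 (2.47%) and PLAU (1.23%), which drive or restrain proteolysis at the cell surface and in the matrix. No promoter feature was called for the proteases MMP1, MMP3 and MMP9, the cytokines IL6 and CXCL8, or CCND1. The share of JUN was above that of every gene in these 4 lists, and its interval overlapped those of several, among them MAPK10, EGR2 and KLF6.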

How the data were processed

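Plate-based snATAC-seq was available for 192 HAP1 nuclei, 96 per plate, and samples were grouped by the plate in their labels. Per the Methods, the authors trimmed the reads with fastp, set CASB reads aside, aligned the rest to hg38 with bowtie2, dropped mitochondrial, low-quality and duplicate reads, called peaks with MACS2 on all cells and counted read pairs with featureCounts (version 1.6.0). The deposited values are raw counts per feature and cell, with no normalization. Each column was matched to 1 cell by its title, and 0 were left unused. A pair is counted in each feature it overlaps, and duplicates were removed within a cell only.

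The counts were binarized. Features in more than 1 cell were kept for the filter, and cells with more than 300 of them passed. Starts and bodies came from GENCODE 44, whose 24 chromosomes match the features. Fold calls between plates needed 10 passing cells. A plate at 0 was set to a floor of 3 cells. Peaks below the caller's threshold are not listed, so a gene without a feature was entered at 0 in medians and in the plot of all genes, and its 0 is no measured share. Promoter letters, motifs and names used hg38 and RefSeq. No doublet caller was run. Reads carry no molecular identifiers. Scripts (SciPy 1.17.1 for the intervals, pandas 2.3.3 and NumPy 2.4.6 for the tables, matplotlib 3.10.9 for the plots, under Python 3.11.15) were tested on simulated data.

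The members, lists and settings were chosen with earlier results of these data known. Named were all 10 members, the features at their starts, up to 3 other features per gene seen in most passing cells (at least 3 cells, away from protein-coding starts), and, of the lists, the 3 highest genes and those with no feature, of which 1 is not reported here. Other features are named to account for every member or for both plates. Alternatives covered the filter, the start and window distances, thinning, linked wells merged or left out, RefSeq starts and at least 2 read pairs.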

Additional observations from a re-analysis of the deposited data

How the results depend on the processing

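No paired analysis was possible because no test was made and the numbers only name wells. No value could be set against replicate error, with 1 sample per plate. The 2 genes at or above 10% of passing cells became 5 at a mark of 5%, 1 at 20%, 1 without the linked wells, 0 after thinning to 600 read pairs and 0 with at least 2 read pairs. The median share of 4.94% became 1.37% thinned, 2.75% without the linked wells, 2.16% with features that contain a start or are centered within 500 bp of one, and 0.309% with at least 2 read pairs. The 34 features became 54 within 100000 bp and 17 with at least 5 cells. The 1 feature past 2-fold between plates became 4 at 1.5-fold, where 46.3% of all features passed, and 0 both with at least 20 passing cells (1 tested) and without the linked wells (2 tested). The 8 features with an AP-1 element became 5 within 100 bp of the center. The 43.2% of nuclei with a promoter became 15.8% thinned. At marks of 5% and 20%, other immediate early genes had 10 and 0, leucine zipper partners 7 and 0, and kinases and regulators 0 at 20%. Across all alternatives, 69 values stayed close to the reported one and 39 moved. Of the 65 for shares of single genes, 48 stayed close and 17 moved. Of the 43 for the other results, 21 stayed close and 22 moved. RefSeq starts were tried for single genes only, since the table holds no entry for FOSL1 and BATF3. Depth limits every share: a promoter not seen in a nucleus is not shown to be closed.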
